A study of Homo sapiens with 12 samples.

Results

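The AP-1 genes described here encode the FOS and JUN family proteins and the small partners they pair with, and were taken by gene symbol from 9 names: FOSL1, FOSL2, FOS, FOSB, JUN, JUNB, JUND, BATF3 and JDP2. Of these 9 genes, 7 were among the 8842 listed genes, and JUND and JDP2 were not analysed here. The family was selected on the rise of FOSL1 after FASRL knockdown. Its siFASRL against siNC values are therefore a description with no test, and the other 6 listed genes entered as named members of the family, with earlier results of these data known. The question was whether the rise of FOSL1 was shared by the other subunits.

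RNA-seq was performed in HepG2 and LM3, which the paper describes as human hepatocellular carcinoma (HCC) cell lines. Cells were transfected with an siRNA against the lncRNA FASRL (siFASRL) or with a negative control siRNA (siNC) and harvested after 48 h. There were 4 groups (HepG2 siFASRL, HepG2 siNC, LM3 siFASRL and LM3 siNC) with 3 libraries in each, 12 in all. FASRL itself was not analysed here, so the knockdown could not be checked in these libraries. The paper reports that it checked the knockdown in both lines. Expression is given as the deposited RSEM values, an estimate per transcript length whose exact form (FPKM or TPM) is not given in the sources used here. These values are not counts, so sequencing depth is unknown and no interval for counting error can be given. Replicates of a group correlated at r of 0.9946 to 0.9988 across genes, where genes are not independent replicates. The methods state in general that cell line experiments were repeated, but not whether the libraries of a group came from separate cultures, so the p-values measure the spread between these libraries, which may be technical. How the 8842 genes were chosen from a whole transcriptome is not given either. Where the mean level reached 5, just 5 of 6367 genes (0.0785%) showed a HepG2 log2 ratio between -0.20 and -0.04, against 578 of 5937 (9.74%) in LM3. Genes in this narrow range of little change are thus nearly missing from the list in HepG2. Whether genes were listed for a change in HepG2 is not known. The calls in HepG2, and the shares of all genes called there, may therefore reflect how the list was made.

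AP-1 is a dimer of basic leucine zipper (bZIP) proteins. JUN proteins pair with each other or with FOS proteins, FOS proteins need a JUN partner, and relatives such as BATF3 and ATF3 join the same network. Many of these genes are immediate early genes, switched on rapidly by growth factor, cytokine and stress signals through MAP kinases and serum response factor. In liver, JUN is known for its roles in hepatocyte survival, regeneration and tumour formation.

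The liver identity of the lines was checked with 12 hepatocyte markers, 11 of them listed. Their summed RSEM value was 2521, 2546 and 2585 in the HepG2 siFASRL libraries and 4707, 4677 and 4250 in the HepG2 siNC libraries, and SERPINA1 was the most abundant of them over the 12 libraries. In LM3 the sum was 8.03, 8.01 and 6.80 under siFASRL and 15.53, 19.90 and 18.07 under siNC, with 1 to 7 of the 11 markers at 0 in a library. Thus the defining hepatocyte markers were close to absent in LM3, where albumin (ALB) averaged 0.0633 and 0.360, TTR and FOXA2 were at 0 under siFASRL, and HNF4A, at 6.71 and 14.3, made up most of the sum. The summed value was lower under siFASRL in both lines. In HepG2 10 of 11 tested markers fell (limma adjusted p under 0.05) and the other was higher, where 44.3% of all tested genes were lower, whereas in LM3 only HNF4A could be tested, which fell (limma adjusted p = 5.66e-06). Their part in the AP-1 values was not tested. In these bulk libraries, fewer cells of a kind and less RNA per cell cannot be told apart.

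Markers of other cell types were also summed. For fibroblasts, 5 of 7 markers were listed, and their sum was 35.35, 32.32 and 33.30 against 70.63, 70.91 and 72.23 in HepG2 (siFASRL against siNC) and 4.69, 5.86 and 5.25 against 15.13, 14.32 and 13.17 in LM3, where COL3A1, DCN and LUM averaged under 0.05. COL1A1, the most abundant over the 12 libraries, had means of 15.7 and 20.1 in HepG2 and 3.01 and 9.95 in LM3. Of 5 endothelial markers only VWF was listed, at 0.02, 0.04 and 0.03 against 0.12, 0.08 and 0.10 in HepG2 and at 0.11, 0.08 and 0.06 against 0.17, 0.35 and 0.28 in LM3. For leukocytes, 3 of 7 markers were listed, with LYZ the most abundant over the 12 libraries. Their sum was 97.95, 88.09 and 89.61 against 128.19, 124.65 and 123.04 in HepG2 and 18.47, 18.51 and 19.05 against 18.22, 15.14 and 16.22 in LM3. The fibroblast sum and VWF, which was near the floor, were thus lower under siFASRL in both lines, and the leukocyte sum went down in HepG2. There LYZ (46.1 against 82.7) and CSF1R (0.877 against 1.51) had lower means. CD68 did not, with 44.9 against 41.1 (limma adjusted p = 0.374). In LM3 the leukocyte sum was slightly higher and came mostly from a gene other than LYZ, while the mean of LYZ itself was lower there (1.13 against 1.60), so the sum does not describe each marker. The LYZ groups overlapped in LM3, and its log2 fold change of -0.30 became 0.09 under quantile normalization. The part of these lists in the AP-1 values was not tested.

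The promoters of the AP-1 genes were examined because several members were higher under siFASRL. RefSeq promoters (GRCh38.p14, 250 bases before to 50 bases after the start) matched 5 of the 7 listed AP-1 genes, and those of FOSL1 and BATF3 are named only. The motifs were searched on both strands, namely TGANTCA, to which FOS and JUN dimers are known to bind, TGACNTCA, bound by dimers with ATF or CREB proteins, and TGACGT, a shorter form that lies within TGACNTCA when N is G and the next bases are CA. TGANTCA was present in 2707 of 35116 promoters (7.71%), TGACNTCA in 2710 (7.72%) and TGACGT in 2803 (7.98%). A match describes the letters and is neither a binding site nor a cause. The stretches below are shown because each of these genes was higher under siFASRL in at least one line and holds a match; each has 30 bases, runs 5′ to 3′ on the strand of the gene, and has the motif in capitals. They lie at chr2:28392780-28392809 (plus strand, FOSL2), chr14:75278752-75278781 (plus strand, FOS), chr19:45467924-45467953 (plus strand, FOSB), chr1:58784096-58784125 (minus strand, JUN) and chr1:212565273-212565302 (plus strand, ATF3, a partner outside the 9 names).
FOSL2: ggagtctggggtTGACGTgagtgaatccac
FOS: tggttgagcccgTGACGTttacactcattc
FOSB: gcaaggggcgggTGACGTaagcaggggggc
JUN: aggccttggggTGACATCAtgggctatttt
ATF3: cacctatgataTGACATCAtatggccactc
TGACGT began 66, 64 and 60 bases before the RefSeq start of FOSL2, FOS and FOSB. The GENCODE starts of FOSL2 and FOS lie further upstream, so these distances hold for the RefSeq starts only. TGACNTCA, read as TGACATCA, began 67 bases before the RefSeq start of JUN and 123 bases before that of ATF3. The JUN stretch lies wholly within the JUN exon of the GENCODE annotation, whose start is further upstream, while 8 bases of the FOSL2 and of the FOS stretch are in exons of these genes. FOSL2 also held TGANTCA 4 bases after its start. None of the 3 motifs was found in the JUNB promoter, in a second ATF3 promoter or in the BATF promoter, which says only that these letters are not in those windows.

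FASRL knockdown was accompanied by higher expression of most other listed AP-1 genes in both lines, but by different amounts. In HepG2, 5 of the 6 members other than FOSL1 passed the filter on low values, and all 5 tested (FOSL2, FOS, JUN, JUNB and BATF3) were higher under siFASRL at a limma adjusted p under 0.05. Among the 8144 genes tested there, 44.8% were higher and 44.3% lower by the same rule, and only 887 were not called. Being called is thus common in HepG2, and how the genes were listed is not given. If they were listed for a change in HepG2, a call there was likely beforehand. The HepG2 count of calls is therefore not evidence of a change on its own. JUN and BATF3 also had a log2 fold change of at least 1, as did 3.61% of tested genes in the higher direction. In LM3, 4 of 6 (FOS, FOSB, JUN and BATF3) were higher, against 33.9% of 7483 tested genes higher and 43.5% lower. FOSB, JUN and BATF3 passed the fold of at least 1 there, against 1.42% of tested genes. BATF3 in HepG2 and FOSB in LM3 passed the filter only through their siFASRL libraries and so had to differ, and these counts support nothing about them. Every siFASRL value was above every siNC value for 4 of 5 tested members in HepG2 and for 4 of 6 in LM3, against 45.4% and 35.6% of tested genes, and these counts too include BATF3 in HepG2 and FOSB in LM3. Fold changes here are on log2(value + 1), so the change of weakly expressed genes is understated.

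**Figure D1:**
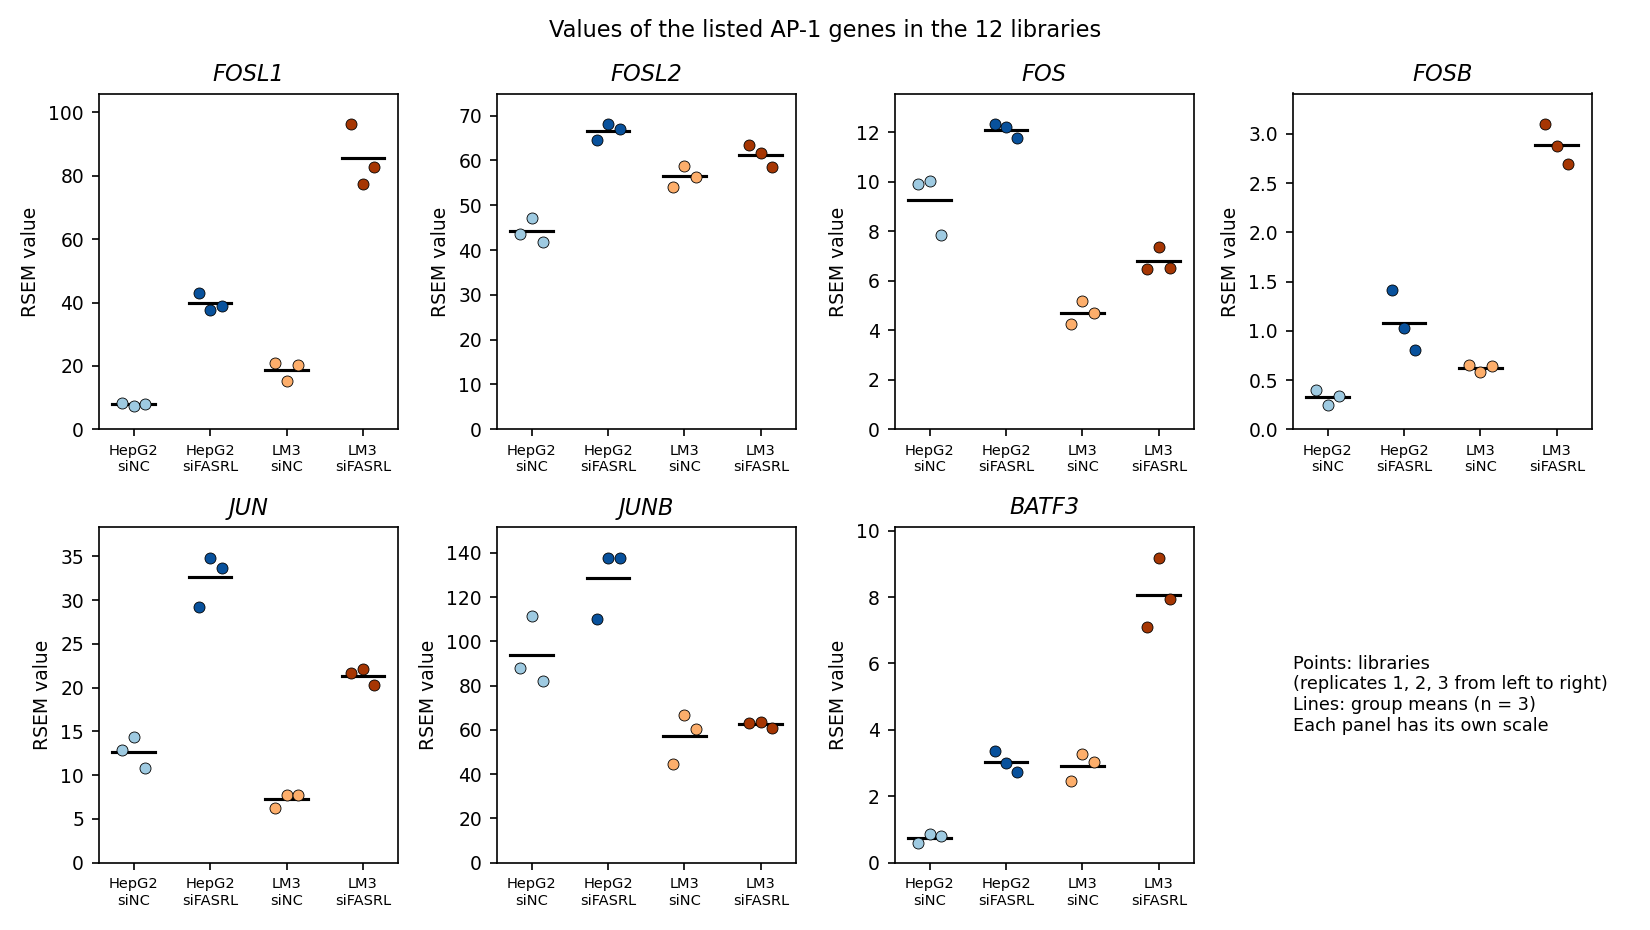
RSEM value of each of the 7 listed AP-1 genes in the 12 libraries, with replicates 1 to 3 of each group from left to right as points and the group mean as a line. FOSL1, JUN and BATF3 were higher in every siFASRL library than in every siNC library of the same line, while FOSL2 in LM3 and JUNB in both lines overlapped.

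FOSL1 encodes FRA1, a FOS family protein that lacks the transactivation domain of FOS. Its RSEM values in HepG2 were 43.04, 37.71 and 38.85 under siFASRL and 8.27, 7.48 and 7.87 under siNC, and in LM3 they were 96.32, 77.26 and 82.76 against 20.77, 15.12 and 20.21. The siFASRL libraries were well above the siNC libraries in both lines, and within each treatment every LM3 library was above every HepG2 library. The ratio of means was 5.06 in HepG2 and 4.57 in LM3, and the log2 fold changes were 2.20 and 2.14, which stood at rank 19 of 8144 and rank 3 of 7483 from the highest. These FOSL1 values chose the family and are given without a test.

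FOSL2, which encodes the related protein FRA2, had the highest level in the FOS family under siNC in both lines on the per-length RSEM scale. Its values in HepG2 were 64.55, 68.12 and 67.01 under siFASRL against 43.49, 47.11 and 41.89 under siNC. In LM3 they were 63.55, 61.66 and 58.52 against 54.09, 58.79 and 56.38. The HepG2 groups were separate, whereas in LM3 siNC replicate 2 lay above siFASRL replicate 3. FOSL2 rose in HepG2 by a log2 fold change of 0.58 (95% CI 0.44 to 0.72, limma adjusted p = 1.45e-05). The LM3 value was 0.12 (95% CI -0.01 to 0.24, limma adjusted p = 0.0873), and the effect differed between the lines by -0.47 (95% CI -0.64 to -0.29, limma adjusted p = 0.000365). Scaling of the libraries by median of ratios moved the median log2 fold change of all LM3 genes from -0.06 to 0.05, and with it FOSL2 in LM3 to 0.23, which passed the threshold. Under quantile normalization that median was 0.03 and FOSL2 in LM3 was 0.01, which did not pass.

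FOS is the prototype of the family. Its values were 12.34, 12.21 and 11.76 against 9.90, 10.05 and 7.87 in HepG2, and 6.49, 7.38 and 6.52 against 4.25, 5.20 and 4.70 in LM3. All siFASRL libraries exceeded the siNC libraries of their line, by a narrow margin. The log2 fold change was 0.36 in HepG2 (95% CI 0.17 to 0.55, limma adjusted p = 0.00276) and 0.45 in LM3 (95% CI 0.28 to 0.62, limma adjusted p = 0.000637), with a difference between lines of 0.09 (95% CI -0.17 to 0.35, limma adjusted p = 0.564). Quantile normalization moved the LM3 value to 0.69.

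FOSB, a FOS relative with a strong transactivation domain in its full-length form, was the lowest of the 7 genes in every group. It measured 1.41, 1.03 and 0.80 against 0.40, 0.25 and 0.34 in HepG2, where it was not tested because too few libraries reached 1. In LM3 the values were 3.10, 2.88 and 2.69 against 0.65, 0.58 and 0.64. Groups were separate in both lines, and the ratio of means was 3.27 in HepG2 and 4.64 in LM3. The LM3 log2 fold change was 1.26, which became 2.05 with a pseudocount of 0.1, and is given without a p-value because the filter let FOSB in through its siFASRL libraries alone. Over the 12 libraries, the LM3 effect exceeded the HepG2 effect by 0.62, a call lost with that pseudocount in place of 1, where the difference was 0.61. This difference is likewise given without a p-value, since FOSB entered that fit through siFASRL libraries alone, and its call supports nothing. No LM3 value could be obtained when an LM3 siFASRL library was left out, since FOSB then no longer passed the filter.

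JUN encodes the AP-1 subunit that can act as a homodimer and pairs with every FOS protein. Its values were 29.25, 34.85 and 33.66 under siFASRL against 12.90, 14.31 and 10.81 under siNC in HepG2, and 21.65, 22.14 and 20.33 against 6.28, 7.77 and 7.68 in LM3. Each siFASRL library was far above each siNC library. JUN rose by 1.30 on the log2 scale in HepG2 (95% CI 1.08 to 1.53, limma adjusted p = 1.97e-06) and by 1.44 in LM3 (95% CI 1.26 to 1.63, limma adjusted p = 1.34e-06). The effects in the lines differed by 0.14 (95% CI -0.16 to 0.45, limma adjusted p = 0.426), and by 0.06 to 0.25 when a library was left out. JUN was at rank 129 of 8144 tested genes in HepG2 and at rank 30 of 7483 in LM3. It passed the filter on low values in both groups, so its call does not come from that filter. Whether its HepG2 call depends on how the genes were listed is not known.

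JUNB, a JUN relative that activates transcription more weakly on its own, had the highest mean level of the 7 genes in HepG2 on the per-length scale. The values were 110.02, 137.74 and 137.87 against 88.04, 111.60 and 82.24 in HepG2, and 63.27, 63.77 and 60.75 against 44.48, 66.61 and 60.31 in LM3. The groups overlapped in both lines, and LM3 siNC replicate 1 stood below the rest of the LM3 libraries. In HepG2 the log2 fold change was 0.45 (95% CI 0.18 to 0.73, limma adjusted p = 0.00586), and in LM3 it was 0.15 (95% CI -0.14 to 0.44, limma adjusted p = 0.310). The difference between lines was -0.30 (95% CI -0.74 to 0.13, limma adjusted p = 0.235). One library decided this comparison, since without LM3 siNC replicate 1 the LM3 value was -0.02 and the difference between lines became -0.47 and passed the threshold. Without LM3 siNC replicate 2 these were 0.27 and -0.18, and the LM3 value was 0.27 under median of ratios scaling and 0.05 under quantile normalization. Of the 1820 exon bases of JUNB, 259 (14.2%) lie opposite exons of HOOK2, and as the use of strand in counting is not given, reads from these bases cannot be told apart.

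BATF3 encodes a short bZIP protein without a transactivation domain that pairs with JUN proteins. Its values were 3.38, 3.01 and 2.72 against 0.61, 0.87 and 0.80 in HepG2, and 7.10, 9.19 and 7.93 against 2.45, 3.26 and 3.04 in LM3. The siFASRL and siNC groups did not overlap in either line. BATF3 had a log2 fold change of 1.20 in HepG2, given without a p-value because only siFASRL libraries took it past the filter there, and 1.21 in LM3 (95% CI 0.98 to 1.45, limma adjusted p = 1.11e-05), and the lines differed by 0.01 (95% CI -0.29 to 0.32, limma adjusted p = 0.943). With a pseudocount of 0.1 the HepG2 value was 1.87 and the difference between lines moved to -0.43, without passing the threshold. In HepG2, leaving out any siFASRL library took BATF3 below the filter.

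**Figure D2:**
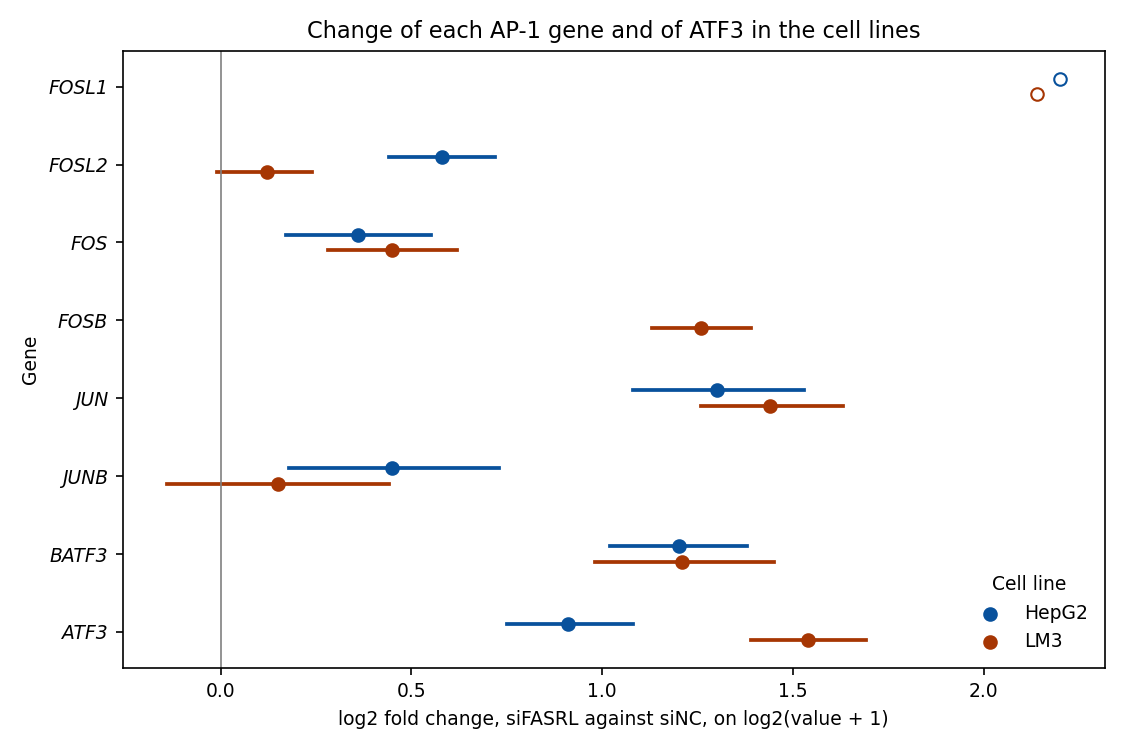
Log2 fold change, siFASRL against siNC, of the AP-1 genes and ATF3 in HepG2 and LM3, with bars for the 95% CI of the limma fit and open circles without bars for FOSL1, whose values chose the family. JUN and BATF3 lie above 1 in both lines, the points of FOS and JUNB lie below 0.5, and FOSB was not tested in HepG2. BATF3 in HepG2 and FOSB in LM3 had to differ by the filter.

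ATF3, a stress-induced bZIP protein that pairs with JUN, lies 65640 bases from BATF3 on chromosome 1 and was named by rule from the list of other bZIP partners. Its values were 10.10, 9.40 and 8.89 against 4.64, 4.92 and 4.11 in HepG2 and 29.89, 29.36 and 30.91 against 10.27, 10.10 and 8.71 in LM3. No library of one group reached the other in either line. The log2 fold change was 0.91 in HepG2 (limma adjusted p = 2.25e-06) and 1.54 in LM3 (limma adjusted p = 4.67e-07), and the effect in LM3 was larger by 0.63 (95% CI 0.41 to 0.85, limma adjusted p = 0.000233). That difference was 0.33 under quantile normalization and still passed. BATF, a close relative of BATF3, was chosen after its values were seen. It lies 240194 bases from FOS on chromosome 14, and measured 1.48, 1.70 and 1.06 against 0.37, 0.49 and 0.16 in HepG2 and was listed at 0 in every LM3 library.

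Because RSEM values are per length, levels could be set side by side between subunits. Under siNC in HepG2 the order of mean RSEM values was JUNB (94.0 ± 15.5, SD, n = 3), FOSL2 (44.2 ± 2.67), JUN (12.7 ± 1.76), FOS (9.27 ± 1.22), FOSL1 (7.87 ± 0.395), BATF3 (0.760 ± 0.135) and FOSB (0.330 ± 0.0755), where only FOS and FOSL1 overlapped as neighbours. Under siFASRL in HepG2, FOSL1 (39.9 ± 2.81) stood behind JUNB (129 ± 16.0) and FOSL2 (66.6 ± 1.83) and ahead of JUN (32.6 ± 2.95), FOS (12.1 ± 0.304), BATF3 (3.04 ± 0.331) and FOSB (1.08 ± 0.308), with no overlap between neighbours. In LM3 under siNC, JUNB (57.1 ± 11.4) and FOSL2 (56.4 ± 2.35) overlapped, followed by FOSL1 (18.7 ± 3.11), JUN (7.24 ± 0.835), FOS (4.72 ± 0.475), BATF3 (2.92 ± 0.419) and FOSB (0.623 ± 0.0379). FOSL1 (85.4 ± 9.81) had the highest level in LM3 under siFASRL, above JUNB (62.6 ± 1.62) and FOSL2 (61.2 ± 2.54), which overlapped. JUN (21.4 ± 0.936) came next there, then BATF3 (8.07 ± 1.05) and FOS (6.80 ± 0.505), which overlapped, and FOSB (2.89 ± 0.205).

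The make-up of each family was described as shares of summed RSEM values within a library, which do not depend on scaling between libraries. The FOS family sum was 61.6 ± 3.48 under siNC and 120 ± 1.53 under siFASRL in HepG2, and 80.5 ± 1.27 and 156 ± 11.3 in LM3 (SD, n = 3, description only). FOSL1 took 12.8% of that sum under siNC and 33.3% under siFASRL in HepG2, and 23.2% and 54.5% in LM3. FOSL2 went from 71.6% to 55.7% in HepG2 and from 70.1% to 39.2% in LM3. FOSL1 replaced FOSL2 as the largest share in LM3, whereas in HepG2 FOSL2 kept it. FOS went from 15.0% to 10.1% and from 5.9% to 4.4%, although its own level was higher, and FOSB from 0.5% to 0.9% and from 0.8% to 1.8%. Within the sum of JUN and JUNB, the share of JUN was 11.9% under siNC and 20.3% under siFASRL in HepG2, and 11.4% and 25.4% in LM3. This sum went from 107 ± 17.2 to 161 ± 18.9 in HepG2 and from 64.4 ± 12.2 to 84.0 ± 2.55 in LM3, and JUND was not part of it. The ratio of the FOS family sum to the JUN and JUNB sum was 0.58 ± 0.0599 under siNC and 0.75 ± 0.105 under siFASRL in HepG2, and 1.28 ± 0.259 and 1.86 ± 0.130 in LM3.

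**Figure D3:**
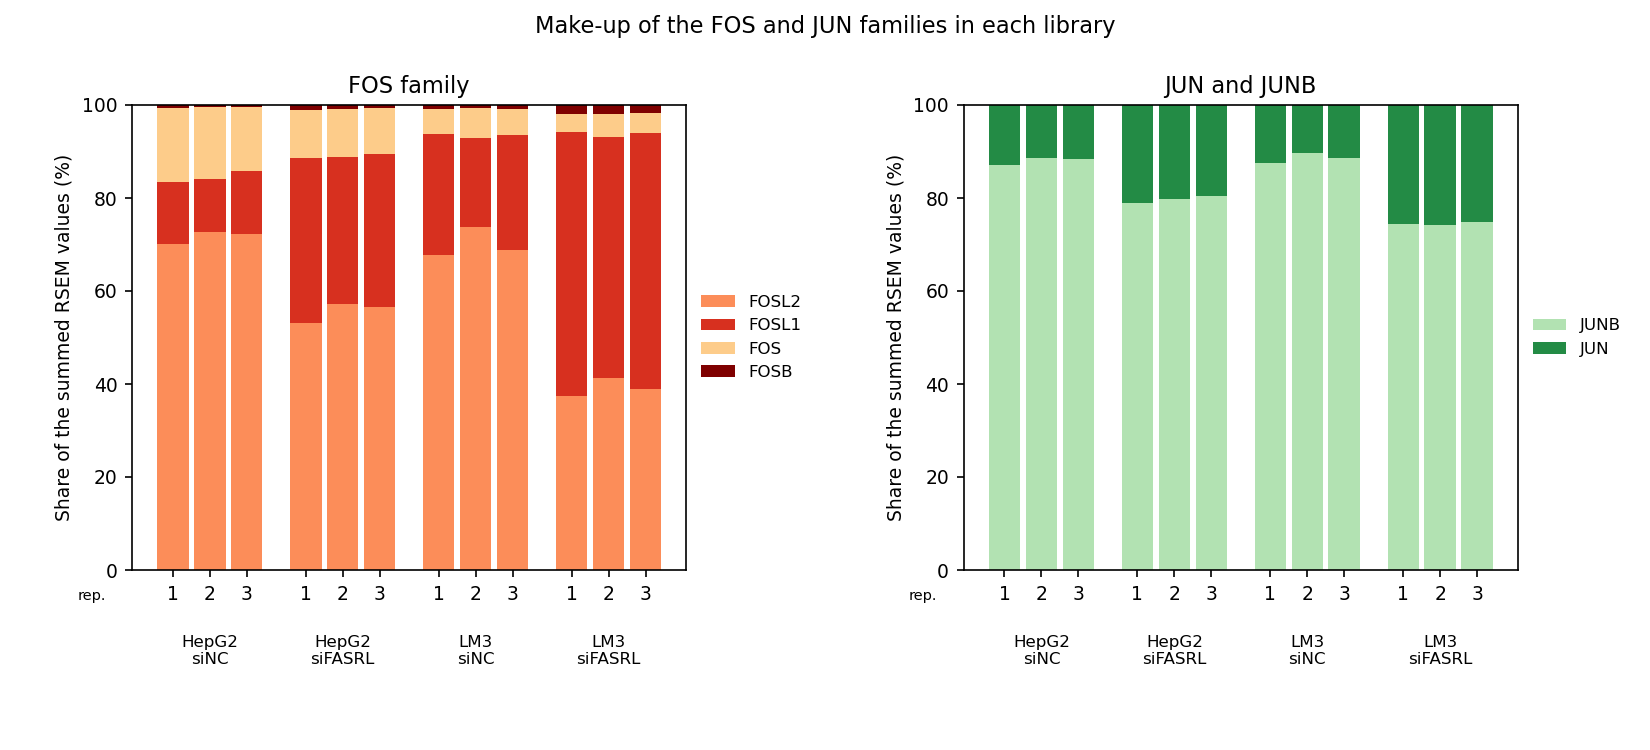
Percent of the summed RSEM value of the FOS family (FOSL1, FOSL2, FOS and FOSB) and of JUN with JUNB that each gene takes in each of the 12 libraries, as stacked bars. The FOSL1 share is larger in siFASRL than in siNC libraries of both lines, reaching a mean of 54.5% in LM3.

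Baseline levels were compared between the lines under siNC, a contrast that did not choose the family. All 6 members tested differed at a limma adjusted p under 0.05, where 80.9% of 8176 genes did so, and FOSB was not tested. BATF3 passed the filter only through its LM3 libraries, since no HepG2 siNC library reached 1, so it had to differ and this count supports nothing about it. FOSL1 was higher in LM3 by 1.14 on the log2 scale (95% CI 0.88 to 1.40, limma adjusted p = 2.23e-05), BATF3 by 1.15 (description, and 1.81 with a pseudocount of 0.1) and FOSL2 by 0.35 (limma adjusted p = 0.00108). FOS (-0.84, limma adjusted p = 7.18e-05), JUN (-0.73, limma adjusted p = 0.000327) and JUNB (-0.72, limma adjusted p = 0.00332) were lower in LM3. Quantile normalization moved the median of all genes in this contrast from 0.00 to 0.16, and the members kept these directions under it. The response to siFASRL differed between lines for FOSL2 and FOSB, 2 of the 6 members tested without FOSL1, where 46.7% of 8285 genes differed. FOSB reached 1 in siFASRL libraries of both lines but in no siNC library, so it entered this fit only through its siFASRL level. The count therefore supports nothing about FOSB, whose call was also lost with a pseudocount of 0.1, and FOSL2 is the member that it describes. The FOSL1 effect in LM3 minus that in HepG2 was -0.06 (description).

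Across the 12 libraries, FOSL1 was compared with 8284 other genes on log2(value + 1). UBE3A (r = 0.994), NOLC1 (0.993), CHD1 (0.992), PPP4R3A (0.991) and IMP4 (0.991) had the most similar profiles, and TCF19 (-0.994), GLB1 (-0.994), PCOLCE (-0.991), PRDX3 (-0.991) and DUSP9 (-0.990) the most opposite. Within AP-1, r was 0.946 for FOSB, 0.934 for BATF3, 0.805 for FOSL2, 0.590 for JUN, -0.014 for FOS and -0.147 for JUNB. These 12 points fall into the same 4 groups for each gene, so r describes the order of the group means as much as anything within a group. JUN, FOS and JUNB were lower in LM3 than in HepG2 while FOSL1 was higher, and their r with FOSL1 is the lowest in the family.

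Other bZIP partners of AP-1 proteins were listed for 13 of 17 genes. In this and the following lists, genes that rose or fell had a limma adjusted p under 0.05 in the line named, to be read against 44.8% higher and 44.3% lower of all tested genes in HepG2 and 33.9% and 43.5% in LM3. In HepG2, 7 of 12 tested were higher and 1 lower, with a median log2 fold change of 0.74 against 0.10 for all genes, and in LM3 8 of 12 were higher and 2 lower, with a median of 0.33 against -0.06. BATF in HepG2 and 1 of the lower genes in LM3 passed the filter through a single group and had to differ. ATF4, a factor of the integrated stress response, rose by 1.06 in HepG2 and 0.72 in LM3. MAFK, a small MAF protein, rose by 1.40 and 1.11, and CEBPB, a C/EBP factor, by 1.11 and 0.84 (limma adjusted p at most 0.00169 for these genes).

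Upstream, MAP kinases phosphorylate JUN and FOS proteins and the factors that switch on their genes. Of 24 MAPK cascade kinases 15 were listed, and in HepG2 4 were higher and 8 lower (median -0.31), while in LM3 3 were higher and 10 lower (median -0.16). The 8 lower kinases in HepG2 are near the 44.3% of all genes, and the 10 in LM3 became 6 under median of ratios scaling and 6 to 11 when a library was left out. MAPK8, a kinase of the JUN N-terminus, fell by 0.56 in HepG2 (0.33 under quantile normalization) and by 0.59 in LM3. MAPK7 fell by 0.64 and 0.44 (the latter 0.25 under quantile normalization), and MAP2K7, an activator of JUN kinases, rose by 0.45 and 0.36. MAP2K6 fell in both lines, from a mean RSEM value of 23.4 to 17.0 in HepG2 and from 24.0 to 4.60 in LM3, a difference between lines of -1.73 (limma adjusted p = 6.88e-08). MAP2K3 rose by 0.92 in HepG2 and 0.25 in LM3, the latter lost without LM3 siFASRL replicate 1 (0.21). MAP2K2, the most abundant kinase of the list over the 12 libraries, had 0.27 in HepG2 (limma adjusted p = 0.0277), a call lost under quantile normalization (0.11), in a shared fit of 12 libraries, and without HepG2 siFASRL replicate 2 or 3 (0.23, 0.22) or siNC replicate 1 or 3 (0.20, 0.23).

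Serum response factor (SRF) acts on the FOS promoter with ETS and MRTF cofactors, and the list also held CREB1 and the MEF2 factors MEF2A and MEF2D, which are not such cofactors. With 5 of the 9 genes of this list in the data, 4 were higher and 1 lower in HepG2 (median 0.38), and 3 were higher and 2 lower in LM3 (median 0.22). SRF rose by 0.27 in HepG2 and 0.31 in LM3. MRTFA rose by 0.40 and 0.22, the LM3 call being lost without LM3 siFASRL replicate 1 (0.18) and its value being 0.36 under quantile normalization. MEF2D, the most abundant of the list over the 12 libraries, rose by 0.38 and 0.25. The ETS factor ELK3, chosen after its values were seen, went opposite ways, with a log2 fold change of 1.74 in HepG2 (limma adjusted p = 2.66e-08) and -0.85 in LM3 (limma adjusted p = 1.72e-06, and -0.54 under quantile normalization). MEF2A fell by 0.34 and 0.21, and its LM3 value was -0.09 and no longer called under median of ratios scaling.

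Immediate early genes outside AP-1 share the rapid induction of FOS and JUN. Of 19 such genes 15 were listed, and 13 of 14 tested were higher and 1 lower in HepG2 (median 1.15), and 12 were higher and 2 lower in LM3 (median 0.79). The lower genes, named after their values were seen, went opposite ways in the lines. CTGF had -0.69 in HepG2 and 0.93 in LM3, BTG2 1.59 and -0.73, and NR4A1 1.14 and -0.16, the last call being lost under median of ratios scaling (-0.04) and with any 1 LM3 siFASRL library left out (-0.17, -0.18 and -0.13 for replicates 1 to 3) or with LM3 siNC replicate 2 left out (-0.11). CYR61, a matricellular protein, rose from 24.5 to 211 in HepG2 and from 17.2 to 87.4 in LM3 (mean RSEM values). DUSP1, a phosphatase of MAP kinases, rose by 1.94 and 1.74 on the log2 scale, and the orphan nuclear receptor NR4A3 by 1.96 and 1.57. IER3, the most abundant of the list over the 12 libraries though not in LM3, rose by 0.86 and 0.69. FOS itself had 0.36 and 0.45. As CYR61, DUSP1 and NR4A3 were named for their large changes, they do not set the whole list against FOS. Not every gene of the list exceeded FOS, as CTGF in HepG2 and BTG2 and NR4A1 in LM3 were lower under siFASRL.

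**Figure D4:**
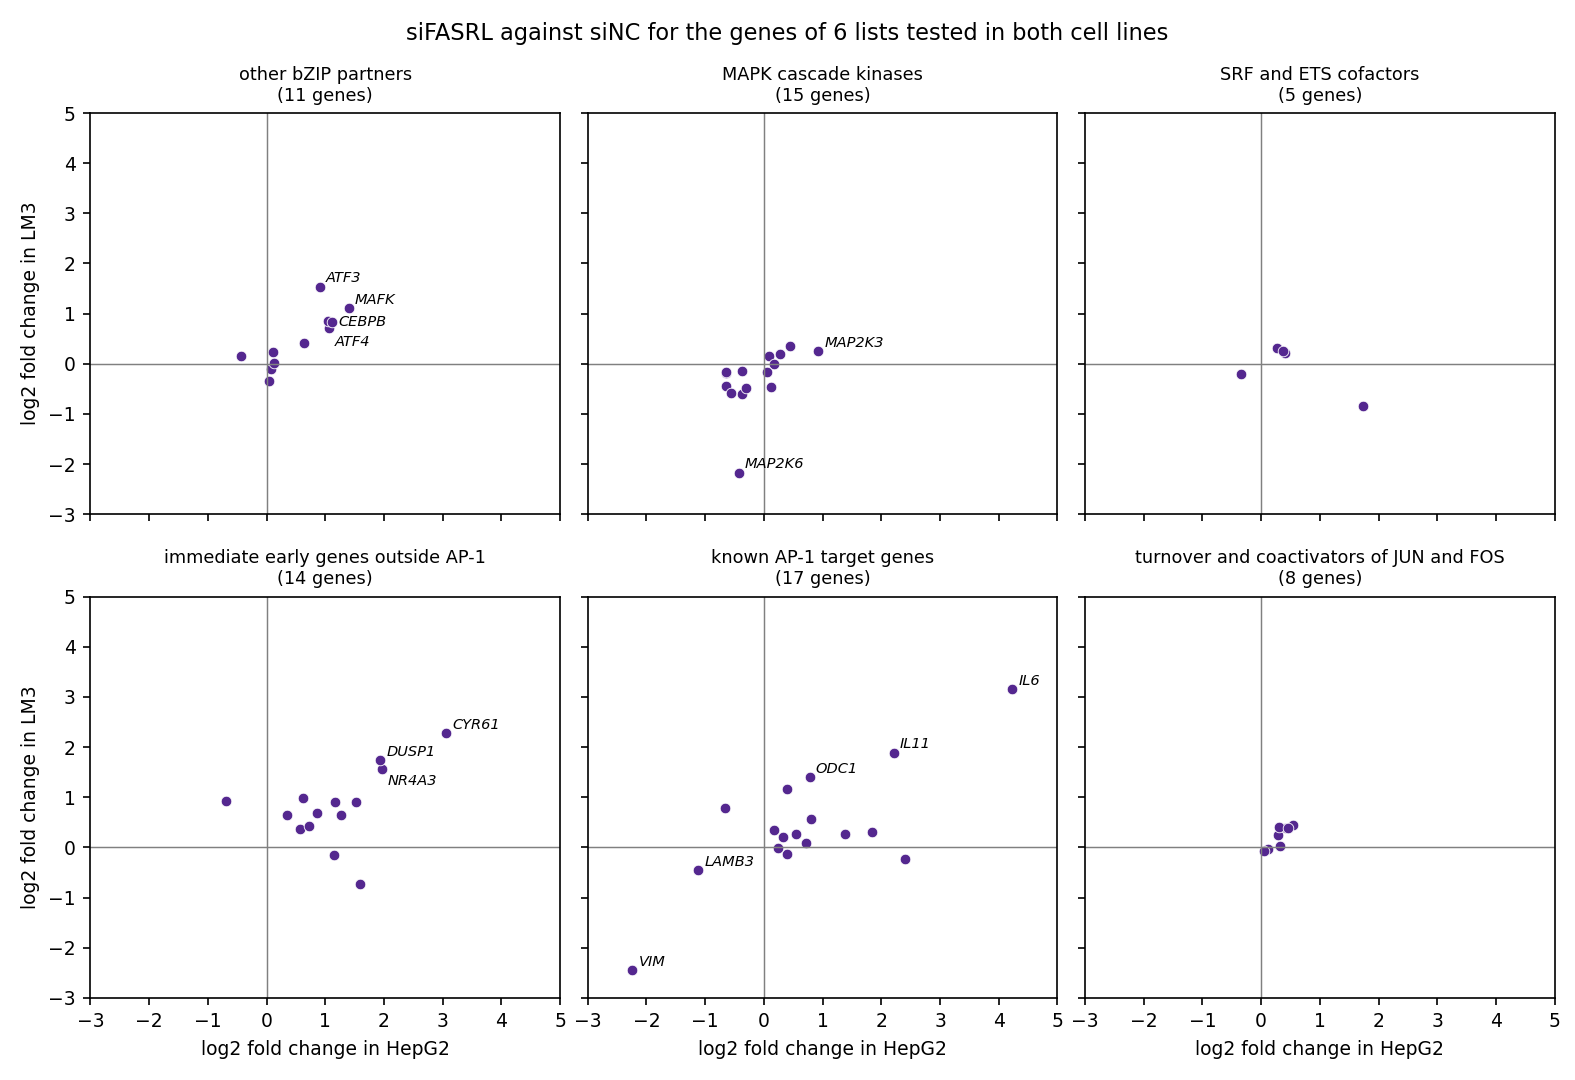
Log2 fold change, siFASRL against siNC, in HepG2 (horizontal) and LM3 (vertical) for the genes of 6 lists around AP-1 that were tested in both lines, each point a gene. Immediate early genes lie mostly above 0 in both lines, and the MAPK cascade kinases lie on both sides of 0.

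Genes known as AP-1 targets were listed for 23 of 30 names. In HepG2, 20 of 23 were higher and 3 lower (median 0.81), where 3 of the higher genes passed the filter only through siFASRL libraries and had to differ, and in LM3 11 of 17 tested were higher and 2 lower (median 0.27). IL6, an inflammatory cytokine, measured 41.03, 41.38 and 38.15 against 1.17, 1.20 and 1.22 in HepG2 and 28.21, 27.27 and 27.19 against 2.30, 2.07 and 2.24 in LM3. Its siFASRL libraries were far above the siNC libraries, with log2 fold changes of 4.23 and 3.16. IL11 rose by 2.21 and 1.89, and ODC1, an enzyme of polyamine synthesis, by 0.78 and 1.40. HMGA1, a chromatin protein and the most abundant of the list over the 12 libraries, rose by 0.81 and 0.56 (0.51 and 0.36 under quantile normalization). In the opposite direction, the intermediate filament gene VIM fell by 2.24 and 2.45, and the laminin gene LAMB3 by 1.12 and 0.45. Thus the listed targets did not move one way.

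Turnover and coactivation of JUN and FOS proteins were covered by 8 listed genes of 12, of which 6 were higher in HepG2 and 5 in LM3 (median 0.31 in both). COPS5, a signalosome subunit that binds JUN, rose by 0.54 and 0.44, and DET1, part of a ubiquitin ligase for JUN, by 0.42 and 0.39 (0.69 and 0.70 under quantile normalization). NACA, a JUN coactivator and the most abundant of the list over the 12 libraries, rose by 0.45 and 0.38, and neither call held under quantile normalization (0.15 and 0.07).

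The AP-1 genes lie on 5 chromosomes (GENCODE v29, GRCh38). FOSL1 is at chr11:65892049-65900573 (minus strand), FOSL2 at chr2:28392448-28417312 (plus), FOS at chr14:75278774-75282230 (plus) and FOSB at chr19:45467995-45475179 (plus). JUN, a gene with 1 exon, is at chr1:58780788-58784327 (minus), JUNB, also with 1 exon, at chr19:12791496-12793315 (plus) and BATF3 at chr1:212686418-212699985 (minus). Listed genes within 500 kb were counted to see whether the AP-1 genes moved with their surroundings, again against 44.8% higher and 44.3% lower of all tested genes in HepG2 and 33.9% and 43.5% in LM3. AP-1 genes, other bZIP genes and genes that passed the filter through a single group were left out of these counts. Near FOSL1, 14 of 21 tested genes were higher and 5 lower in HepG2 (median 0.35), and 12 of 20 were higher and 5 lower in LM3 (median 0.23). All 5 tested neighbours of FOSL2 were higher in HepG2 (median 0.33), and 3 of 5 in LM3 (median 0.23). JUN had a single listed neighbour, MYSM1, which was lower in both lines (-0.49 and -0.35), while JUN itself was higher. Near BATF3, 2 of 4 genes were higher and 2 lower in HepG2 (median -0.11), and 3 of 5 were lower in LM3 (median -0.13). The neighbours of FOS had a median of -0.55 in HepG2 (2 of 7 higher, 5 lower) and -0.51 in LM3 (1 of 6 higher, 5 lower), opposite in sign to FOS. Those of FOSB had a median of 0.07 in HepG2 (7 of 18 higher, 8 lower) and -0.06 in LM3 (4 of 16 higher, 6 lower), and those of JUNB 0.20 (11 of 20 higher, 6 lower) and 0.13 (9 of 19 higher, 5 lower).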

How the data were processed

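RNA-seq values of 12 libraries were used as deposited. The authors filtered reads with SOAPnuke, aligned them with HISAT2 and Bowtie2 and estimated expression with RSEM, and the deposited value per gene is read as a level per transcript length whose form (FPKM or TPM) is not given in the sources used here. The submitters' processing notes name hg19, whereas the chromosome identifiers in the tables are of GRCh38, so positions come from GENCODE v29 (GRCh38) and promoters from RefSeq (GRCh38.p14). The 6 LM3 columns repeated in the table of a HepG2 library were identical and not used, and 17 symbols turned into dates were restored. A count test had been planned for counts. As the values are not counts, limma 3.58.1 (R 4.3.3) was fitted to log2(value + 1), keeping genes that reached 1 in 3 or more libraries, with Benjamini-Hochberg adjustment over all genes tested, and was tested on simulated data. Tables and figures were made with Python 3.11.15, pandas 2.3.3 and matplotlib 3.10.9. Each line was fitted alone, the lines were compared under siNC, and an interaction was fitted over 12 libraries. An exact permutation test of 3 against 3 libraries cannot give a p below 0.1. Alternatives were a pseudocount of 0.1, no filter, median of ratios and quantile scaling, a replicate block, a shared fit of 12 libraries, a fold threshold and leaving out each library. The members and the 10 gene lists (6 around AP-1 and 4 of cell type markers) were chosen with earlier results of these data known, and the motifs and the window of 500 kb with the data in view. Genes named were the listed members, the most abundant gene of each list, up to 3 genes per direction and list with the largest mean change among those called the same way in both lines, and the 5 genes most and least like FOSL1. From marker lists only the most abundant gene was named by rule, and ALB, HNF4A, TTR, FOXA2, COL3A1, DCN, LUM, CD68, CSF1R, ELK3, CTGF, BTG2, NR4A1, MYSM1 and HOOK2 were named after their values were seen.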

Additional observations from a re-analysis of the deposited data

Results flagged for a closer look

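The response to siFASRL differed between HepG2 and LM3 for 21 of the named genes that were examined one by one, by the limma interaction over the 12 libraries (LM3 effect minus HepG2 effect, on log2). Among AP-1 genes and partners these were FOSL2 (-0.47, adjusted p = 0.000365), FOSB (0.62, description), BATF (-0.85, adjusted p = 0.000231), ATF4 (-0.35, adjusted p = 0.00243) and ATF3 (0.63, adjusted p = 0.000233). BATF was listed at 0 in all LM3 libraries and passed the filter only through HepG2 siFASRL, so it had to differ, its difference (-1.84 with a pseudocount of 0.1) is that of HepG2 alone and its p-value supports nothing. FOSB reached 1 only in siFASRL libraries, of both lines, so its difference is given without a p-value and its call supports nothing. The ATF3 difference was 0.33 under quantile normalization. The ETS factor ELK3 (-2.59, adjusted p = 5.33e-11 by limma) was higher under siFASRL in HepG2 and lower in LM3, as were the early genes BTG2 (-2.32, adjusted p = 2.22e-09) and NR4A1 (-1.30, adjusted p = 5.77e-08), while CTGF (1.63, adjusted p = 7.00e-06) went the other way in each line, all by limma. ELK3, BTG2, NR4A1 and CTGF were named after their values were seen, so their p-values are no test of this opposite pattern. The LM3 value of NR4A1 alone (-0.16) was no longer called in several settings. Kinases and further early genes with a difference were MAP2K3 (-0.68, adjusted p = 4.45e-05), MAP2K6 (-1.73, adjusted p = 6.88e-08), CYR61 (-0.78, adjusted p = 1.28e-05) and NR4A3 (-0.40, adjusted p = 0.000987). AP-1 targets with a difference were IL6 (-1.07, adjusted p = 8.29e-08), IL11 (-0.33, adjusted p = 0.0488), ODC1 (0.62, adjusted p = 4.20e-05) and LAMB3 (0.66, adjusted p = 0.000457), again by the limma interaction. The remaining genes of these 21 were COL1A1 (-1.10, adjusted p = 2.41e-06), LYZ (0.53, adjusted p = 0.00924), PRDX3 (0.27, adjusted p = 0.0399) and DUSP9 (0.34, adjusted p = 0.0421). ALB, HNF4A, TTR, FOXA2, COL3A1, DCN, LUM, CD68, CSF1R, MYSM1 and HOOK2 are outside this tally. By marker list, the difference was called higher for 8 and lower for 1 of 11 hepatocyte markers. It was called higher for 2 and lower for 1 of 4 fibroblast markers, COL1A1 being the lower one. In LM3 alone only 1 of these hepatocyte and 2 of these fibroblast markers passed the filter. The others were near the floor there, so these counts largely describe the changes in HepG2. The calls of IL11, PRDX3 and DUSP9 were lost with a pseudocount of 0.1 and without most single libraries, and those of FOSB (0.61) and LYZ (0.34) with that pseudocount. Quantile normalization moved NR4A3 to -0.70, IL6 to -1.62, IL11 to -0.57, COL1A1 to -0.70, LYZ to 1.07 and DUSP9 to 0.59. Of all 8285 genes in that fit, 46.7% differed between the lines.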

How the results depend on the processing

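Members called numbered 5 in HepG2, 4 in LM3, 6 between lines under siNC and 2 for the difference between lines. BATF3 (HepG2, between lines) and FOSB (LM3, difference between lines) are in these counts through the filter, so the counts support nothing about them. Without the filter and under quantile normalization FOSB was added in HepG2 (6) and between lines (7), the shared fit added it in HepG2 (6), and median of ratios scaling added FOSL2 in LM3 (5). Requiring a log2 change of at least 1 left 2 in HepG2, 2 between lines and 0 for the difference between lines. A pseudocount of 0.1 left 1 for the difference between lines. Leaving out 1 library gave 4 to 5 in HepG2, 3 to 4 in LM3, 5 to 6 between lines and 2 to 3 for the difference between lines, where BATF3 (HepG2, between lines) or FOSB (LM3) fell below the filter and JUNB was added to the difference between lines without LM3 siNC replicate 1. When libraries sharing a number were compared by how they departed from their group mean, r was 0.312, 0.362 and -0.195 in HepG2 and -0.083, 0.091 and -0.163 in LM3. In HepG2 replicates 1 and 2 thus deviated together and replicate 3 did not, while differently numbered libraries had r of -0.448 to 0.289. As not every pair deviated together and not every library correlated best with its own number, the numbers were not taken to pair the libraries. The replicate block gave 5, 4, 6 and 2 members and added a call for VIM (difference between lines, -0.21) and MAP2K2 (siNC, 0.23). Under quantile normalization 4 values that were called before or after changed sign: ELK3 under siNC (0.04), LYZ in LM3 (0.09), NR4A3 under siNC (0.18) and PCOLCE for the difference between lines (0.52). Among list counts, other bZIP partners lower in HepG2 numbered 2 without a filter and 2 in the shared fit, and 1 to 2 in LM3 when a library was left out. MAPK kinases higher in HepG2 numbered 2 in the shared fit, and 2 to 5 without a library, those higher in LM3 1 to 3, and those lower in LM3 6 under median of ratios scaling and 6 to 11 without a library. Under that scaling 1 SRF cofactor and 1 immediate early gene were lower in LM3, the latter 1 to 2 without a library. AP-1 targets lower in LM3 numbered 4 in the shared fit and 2 to 4 without a library. Beyond the lost filter passes, the cause was not tested. Of the tested single-gene values under alternatives, 2505 stayed on their side of the threshold with no change of sign beyond the standard error, 57 lost a call, 17 gained one, 6 uncalled values changed sign and 4 reversed. The 41 knockdown values of FOSL1, which have no test, did not change sign by more than the standard error. Of the counts, 320 were within 1.5 times the main count, 20 were lower and 4 higher. Depth is unknown, so precision at low values cannot be judged.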
